A study of Mus musculus with 12 samples.

Results

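Gpnmb, Spp1, Lgals3, Trem2, Ctsk and Mitf are 6 of the 38293 gene identifiers in a count table from mouse embryonic heart ventricles, and they are described here across the 4 genotypes of the study. They were chosen by name as genes of macrophages that take up lipid and debris, with the values of the Mib1 mutant and Cre control libraries already known. Their Mib1 mutant and Cre control values are therefore given as a description, with no test. All 6 genes passed the filter on low counts, as did 13964 genes in all.

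The Mib1 mutant embryos carried the nonsense allele R530X over a flox allele of Mib1 and 1 copy of Tnnt2-Cre. The Cre control embryos carried Mib1 flox over a wild-type allele and the same Tnnt2-Cre. The triple heterozygotes carried Mib1 R530X, Apcdd1 V150I and an Asxl3 missense allele, each over a wild-type allele and with no Cre; the labels number the Asxl3 change M1361V in the protocol and M1415V in the genotype field. The WT embryos carried none of these alleles. Mib1 encodes a ubiquitin ligase that the Notch ligands need in order to signal, and Tnnt2-Cre recombines in cardiomyocytes, so the flox allele is deleted in muscle cells and not in macrophages, while R530X is present in every cell of its carriers. Each genotype had 3 pools of 4 pairs of ventricles at stage E15.5, so embryos cannot be told apart within a pool, and no label used here gives their sex or litters. Nor do the labels say whether WT and Cre control embryos shared a strain background.

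Libraries held 10103548 to 22157720 reads assigned to genes, and the second deepest held 14774121. Levels are given as CPM (read counts relative to the library total), scaled between libraries by the trimmed mean of M values, and 1 read was worth 0.0452 to 0.0990 CPM. Mib1 followed the labels: it stood at 54.8, 50.01 and 51.8 CPM in Mib1 mutant pools, against 108, 107 and 101 CPM in Cre control pools (log2 difference -1.01, SE 0.09, edgeR adjusted p = 4.7e-05). In triple heterozygote pools Mib1 stood at 73.9, 57.9 and 74.0 CPM, against 145, 126 and 136 CPM in WT pools (log2 difference -0.99, SE 0.09, edgeR adjusted p = 0.000276). The marker lists placed macrophages in every pool: 24 of 26 macrophage markers reached 1 CPM in some pool, and their summed level was 213 to 261 CPM in Mib1 mutant, 246 to 272 CPM in Cre control, 232 to 288 CPM in triple heterozygote and 242 to 262 CPM in WT pools. Replicate 3 of the triple heterozygotes stood apart from the other 11 pools by its bone genes. The triple heterozygote differences of the 6 genes are given with and without it.

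Tissue macrophages clear dying cells and lipid through phagocytosis and break the cargo down in lysosomes. In several mouse and human tissues, macrophages under a high load of lipid or debris switch on a shared set of genes around the receptor TREM2, among them Gpnmb, Spp1 and Lgals3. The MiT/TFE transcription factors, of which MITF is a member, drive many lysosomal genes, and in mouse osteoclasts MITF acts on Ctsk. Some of these genes also have other sources: Gpnmb and Mitf are known in melanocytes, Spp1 and Ctsk in bone, and Mitf in cardiomyocytes.

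Start-site sequences are shown for Gpnmb, Spp1 and Trem2, which had similar profiles over the 12 pools. Lgals3 is not shown, though it followed Gpnmb as closely (Pearson r = 0.84, against 0.79 for Spp1 and 0.75 for Trem2). They come from RefSeq on GRCm38.p6, run 5′ to 3′ on the plus strand, and hold 250 bases before and 50 bases from the annotated start. Capitals mark the AP-1 motif TGANTCA and the core GAGGAA of the motif of the myeloid factor PU.1, which reads TTCCTC on the other strand.
Gpnmb (chr6:49036268-49036567): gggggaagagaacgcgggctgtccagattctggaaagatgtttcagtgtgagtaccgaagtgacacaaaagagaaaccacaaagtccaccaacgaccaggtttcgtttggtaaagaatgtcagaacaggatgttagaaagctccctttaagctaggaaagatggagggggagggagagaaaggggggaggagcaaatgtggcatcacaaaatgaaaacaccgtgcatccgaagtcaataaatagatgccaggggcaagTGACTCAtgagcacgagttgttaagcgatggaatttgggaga
Spp1 (chr5:104434861-104435160): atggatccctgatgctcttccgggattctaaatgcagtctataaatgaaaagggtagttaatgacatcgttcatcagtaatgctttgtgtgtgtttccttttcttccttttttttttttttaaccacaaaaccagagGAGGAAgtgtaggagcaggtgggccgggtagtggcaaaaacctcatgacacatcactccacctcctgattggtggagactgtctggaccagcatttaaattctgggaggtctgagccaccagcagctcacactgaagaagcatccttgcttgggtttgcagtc
Trem2 (chr17:48346151-48346450): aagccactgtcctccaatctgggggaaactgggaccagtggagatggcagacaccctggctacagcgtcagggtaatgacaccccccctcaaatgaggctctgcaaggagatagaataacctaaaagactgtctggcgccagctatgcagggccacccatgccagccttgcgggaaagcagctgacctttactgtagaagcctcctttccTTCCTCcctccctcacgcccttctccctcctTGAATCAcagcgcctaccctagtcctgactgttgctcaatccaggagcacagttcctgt
All 6 genes had a start-site window in RefSeq, 9 windows in total. The AP-1 motif was present in Gpnmb, at base 9 after the start, and in Trem2, at base -9, and 7.81% of the 32851 mouse windows of this length hold it on either strand. The PU.1 core was present in Spp1 at base -113, in Trem2 at base -40 on the minus strand, and in Ctsk at bases -233 and -58, and 28.3% of all windows hold it. The windows of Lgals3 and Mitf held neither motif. The MiT/TFE E-boxes CACGTG and also CATGTG (on the other strand CACATG), held by 7.15% and 14.2% of all windows, and the RBPJ core TGGGAA (on the other strand TTCCCA), held by 25.6%, were in none of the 9 windows. These letters describe the windows alone.

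Gpnmb encodes a transmembrane glycoprotein of the lysosome and phagosome (ENSMUSG00000029816, plus strand of chromosome 6, 49036546 to 49070929 on GRCm38). Its mean was lowest in Mib1 mutant and highest in Cre control ventricles. It had 2.09, 5.77 and 2.84 CPM in Mib1 mutant pools, against 20.9, 20.4 and 23.2 CPM in Cre control pools. No Mib1 mutant pool came near a Cre control pool, and replicate 2 was the highest of the mutant pools. The log2 difference was -2.59 (SE 0.40), and -3.11 without Mib1 mutant replicate 2.

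Gpnmb in triple heterozygote pools had 11.9, 12.8 and 4.65 CPM, against 13.2, 11.5 and 4.68 CPM in WT pools. The values of these groups overlapped throughout, and replicate 3 was the lowest pool of each. Triple heterozygote minus WT was 0.04 on the log2 scale (SE 0.37, edgeR adjusted p = 0.984), and the sign of this small difference turned when single pools were left out, between -0.30 without WT replicate 3 and 0.34 without triple heterozygote replicate 3. The group means were 3.57 ± 1.95 CPM in Mib1 mutant, 21.5 ± 1.54 CPM in Cre control, 9.77 ± 4.45 CPM in triple heterozygote and 9.79 ± 4.50 CPM in WT pools (SD, n = 3 each). Ordered by mean, with WT and triple heterozygote nearly equal between Cre control and Mib1 mutant, only Cre control and WT among neighbours had pools that did not overlap. Cre control minus WT was 1.14 on the log2 scale (SE 0.36).

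**Figure D1:**
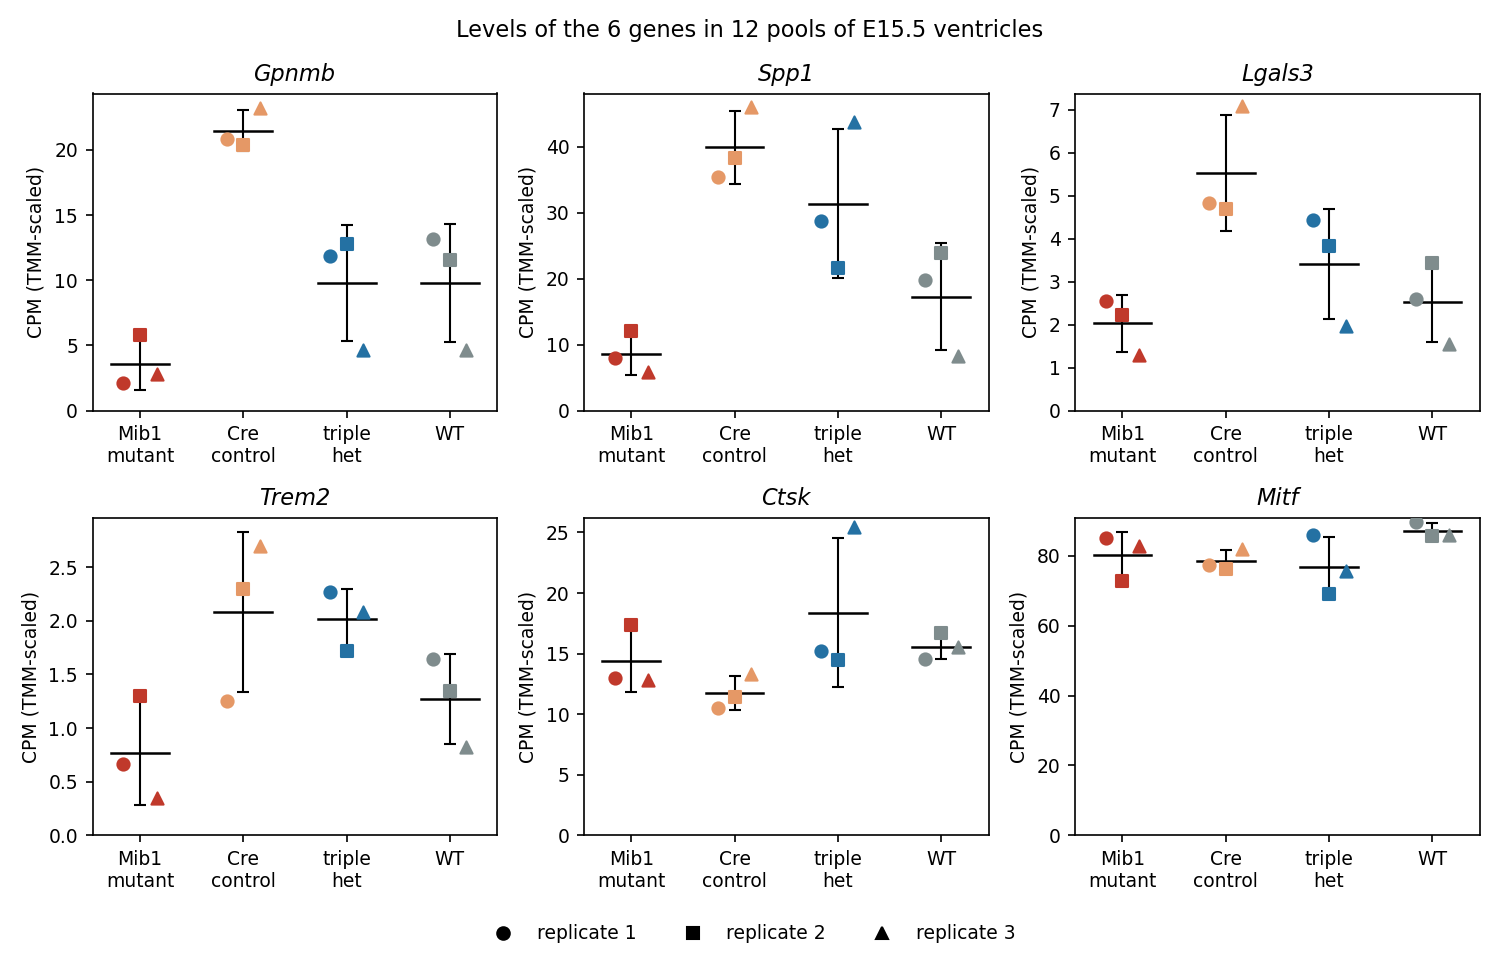
CPM of each gene (vertical axes, from 0) in the 3 pools of Mib1 mutant, Cre control, triple heterozygote and WT ventricles, with the group mean (line) and SD (bar) and marker shapes for replicate numbers. Gpnmb and Spp1 lie lowest in Mib1 mutant and highest in Cre control means, while Ctsk and Mitf show no such gap.

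Spp1 encodes osteopontin, a secreted phosphoprotein that binds integrins and CD44 and belongs to the SIBLING family of matrix proteins (ENSMUSG00000029304, plus strand of chromosome 5, 104435118 to 104441050). It had 7.97, 12.1 and 5.86 CPM in Mib1 mutant pools, against 35.3, 38.3 and 46.0 CPM in Cre control pools. These groups did not overlap, and the lowest Cre control pool was far above the highest mutant pool. The log2 difference was -2.22 (SE 0.34), a 4.64-fold lower level. Per kilobase of exon, which allows genes to be compared, Spp1 was the highest of the 6 in Cre control ventricles at 24.2 CPM per kb, and it stood at 5.25 CPM per kb in Mib1 mutant ventricles, behind Mitf at 12.96 and Ctsk at 9.51 CPM per kb.

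In triple heterozygote pools Spp1 had 28.7, 21.6 and 43.8 CPM, against 19.8, 23.8 and 8.21 CPM in WT pools. The groups overlapped, with replicate 3 the highest triple heterozygote pool and replicate 3 the lowest WT pool. The log2 difference was 0.84 (SE 0.31, edgeR unadjusted p = 0.0177, adjusted p = 0.565). It was 0.53 without triple heterozygote replicate 3 (edgeR adjusted p = 0.546), and ranged between 0.50 without WT replicate 3 and 1.14 without WT replicate 2. Without a filter on low counts the difference of 0.85 passed the threshold (edgeR adjusted p = 0.0316). That setting called 54 genes in all, against 3 with the filter. Cre control minus WT was 1.21 (SE 0.31), with no overlap of pools. All neighbours in the order of group means, Cre control, triple heterozygote, WT and Mib1 mutant, overlapped for Spp1.

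Bone genes moved with Spp1 in triple heterozygote replicate 3. Ibsp, bone sialoprotein and another SIBLING protein, had 21.4 CPM there and at most 0.589 CPM in the other 11 pools. Dmp1, a matrix protein of osteocytes, had 3.07 CPM against at most 0.173 CPM elsewhere, and Sp7, the osteoblast transcription factor, had 1.48 CPM against at most 0.135 CPM. Of 10 bone and cartilage markers 6 were highest in this pool, namely Ibsp, Dmp1, Sp7, Phex, Alpl and Col10a1, and so were 3 of 9 osteoclast markers, Mmp9, Acp5 and Calcr. The summed bone and cartilage markers were 6.44, 12.4 and 45.9 CPM over the triple heterozygote pools in rising order, against 6.32 to 11.02 CPM in WT pools. The part of this pool's bone RNA in the Spp1 difference was not tested beyond leaving the pool out. In the Mib1 mutant and Cre control pools Ibsp and Dmp1 were at or near 0, at no more than 0.135 CPM.

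**Figure D2:**
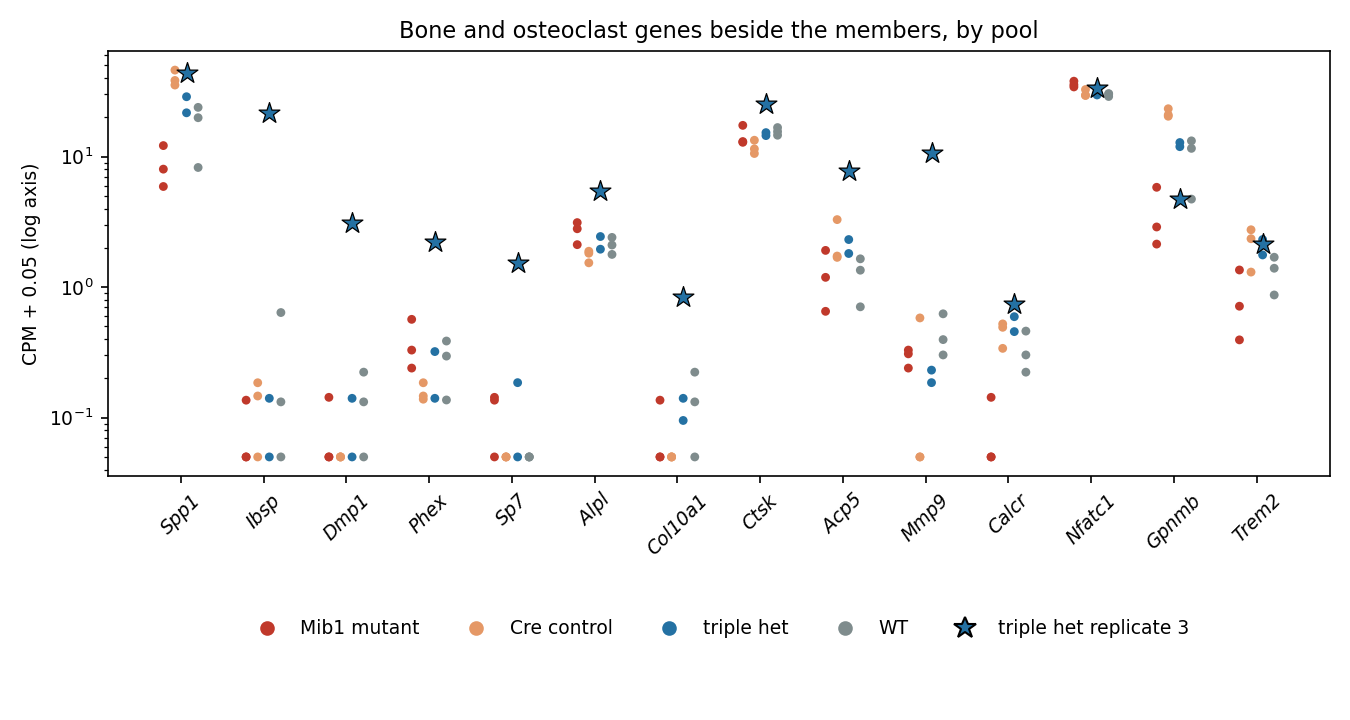
CPM plus 0.05 on a log axis for Spp1, Ctsk, Gpnmb and Trem2 beside bone and osteoclast genes, 1 point per pool, coloured by genotype, with triple heterozygote replicate 3 as a star. The star lies far above all other pools for Ibsp, Dmp1, Sp7, Phex and Mmp9, near the top for Spp1 and Ctsk, and low for Gpnmb.

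Lgals3 encodes galectin-3, a secreted and cytosolic lectin that gathers on damaged lysosomes (ENSMUSG00000050335, plus strand of chromosome 14, 47367751 to 47386160). It had 2.56, 2.24 and 1.29 CPM in Mib1 mutant pools, against 4.83, 4.69 and 7.09 CPM in Cre control pools. The pools did not overlap, and the log2 difference was -1.46 (SE 0.35). Triple heterozygote pools had Lgals3 at 4.44, 3.84 and 1.98 CPM, against 2.60, 3.45 and 1.56 CPM in WT pools. Those groups overlapped, with a log2 difference of 0.45 (SE 0.34, edgeR adjusted p = 0.686), and replicate 3 was again the lowest of each. The difference was 0.70 without triple heterozygote replicate 3, and leaving out single pools it ranged between 0.19 without WT replicate 3 and 0.74 without WT replicate 2. The Mib1 mutant pools lay within the range of the WT pools or just under it, and Cre control pools lay above every other pool, by 1.14 over WT (SE 0.33). Of 6 tested genes for other galectins and the galectin-3-binding protein, none passed in any of the 3 comparisons with edgeR, DESeq2 or limma-voom. In Mib1 mutant minus Cre control 2 had an edgeR unadjusted p under 0.05, against 14% of all genes.

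Trem2 encodes the lipid-sensing receptor of the programme (ENSMUSG00000023992, plus strand of chromosome 17, 48346401 to 48354147), and it was scarce. It had 0.664, 1.30 and 0.344 CPM in Mib1 mutant pools, from 7, 14 and 4 reads, against 1.25, 2.30 and 2.70 CPM in Cre control pools, from 13, 26 and 40 reads. Mib1 mutant replicate 2 overlapped Cre control replicate 1, and the log2 difference was -1.46 (SE 0.44), with -2.06 without Mib1 mutant replicate 2 and -1.10 without Mib1 mutant replicate 3. In triple heterozygote pools Trem2 had 2.27, 1.72 and 2.08 CPM, against 1.65, 1.35 and 0.821 CPM in WT pools. The triple heterozygote pools all lay above the WT pools, yet the difference of 0.65 did not pass (SE 0.40, edgeR adjusted p = 0.633). It was 0.63 without triple heterozygote replicate 3 and lay between 0.42 and 0.88 leaving out single pools. Cre control minus WT was 0.73 (SE 0.40), with overlap.

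Of the partners of TREM2, 5 of 6 could be tested, and all 5 were lower in Mib1 mutant than in Cre control ventricles, with a median log2 difference of -0.29 against 0.00 over all genes. None passed, and DESeq2 and limma-voom called none. Of the 5, 2 had an edgeR unadjusted p under 0.05. Over all genes, 14% had such a p and 48.8% were lower. Tyrobp, the adaptor DAP12 through which TREM2 signals, differed by -0.82 (SE 0.21, edgeR adjusted p = 0.0656), while Syk, the kinase it recruits, differed by -0.18 (edgeR adjusted p = 0.397). The TREM2 ligand Apoe and the inhibitory phosphatase gene Inpp5d both stood at -0.29. Hcst, the other adaptor, stayed under 1 CPM in all 12 pools. For triple heterozygote minus WT these 5 differences were all at or above 0, with a median of 0.03 and none with an unadjusted p under 0.05.

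Ctsk and Mitf did not share the pattern. Ctsk encodes cathepsin K, a collagen-degrading lysosomal protease (ENSMUSG00000028111, plus strand of chromosome 3, 95499256 to 95509362). It had 13.003, 17.3 and 12.8 CPM in Mib1 mutant pools, against 10.5, 11.4 and 13.3 CPM in Cre control pools. The pools overlapped, and the log2 difference was 0.28 (SE 0.20). In triple heterozygote pools Ctsk had 15.2, 14.4 and 25.4 CPM, against 14.5, 16.7 and 15.52 CPM in WT pools. The bone-marked replicate 3 was the highest of all 12 pools, and the difference of 0.22 (SE 0.19, edgeR adjusted p = 0.724) turned to -0.074 without it (edgeR adjusted p = 0.886). Cre control minus WT was -0.40 (SE 0.20), with no overlap of pools, in the opposite direction to Gpnmb and Spp1.

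Mitf, the transcription factor, had the highest CPM of the 6 and ranged from 69.2 to 89.8 CPM over all 12 pools (ENSMUSG00000035158, plus strand of chromosome 6, 97807052 to 98021349). It had 85.1, 72.9 and 82.7 CPM in Mib1 mutant pools, against 77.4, 76.2 and 82.0 CPM in Cre control pools. These overlapped, with a log2 difference of 0.03 (SE 0.08). In triple heterozygote pools Mitf had 85.9, 69.2 and 75.7 CPM, against 89.8, 85.8 and 86.0 CPM in WT pools. The difference of -0.18 had an unadjusted p of 0.0457 and an adjusted p of 0.569 (edgeR, SE 0.08). It was also -0.18 without triple heterozygote replicate 3. The difference of Cre control minus WT was -0.15 (SE 0.08), with no overlap of pools. Its relatives did not differ in Mib1 mutant ventricles beyond the test: Tfeb by -0.10 (edgeR adjusted p = 0.795) and Tfe3 by 0.11 (edgeR adjusted p = 0.753). Tfec, the myeloid relative, stayed at 0.792 CPM or less.

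Over the 6 genes, Mib1 mutant minus Cre control was negative for 4 and positive for 2, with a median of -1.46, and the pools of 3 (Gpnmb, Spp1 and Lgals3, all lower in the mutant) did not overlap. Pools did not overlap for 16.6% of all genes tested there, 7.75% with the mutant lower and 8.86% with it higher. Among all genes tested, 0.594% were called lower and 0.909% higher in that comparison by edgeR at an adjusted p under 0.05. The genes were picked on this comparison, so their share is not read against these backgrounds. Cre control minus WT was positive for 4 and negative for 2, with a median of 0.94 and 5 genes whose pools did not overlap, where 0.279% of all genes were called in either direction and 19.1% had pools that did not overlap. It shares the Cre control libraries with the first comparison, so a high Cre control level enters both.

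The comparison of triple heterozygotes with WT shares no library with the pools that chose the genes. Its SE and p-values are not independent of those pools, since the edgeR fit estimated the spread from all 12 libraries. In triple heterozygote minus WT, 5 differences were positive and 1 negative, with a median of 0.33 on the log2 scale. Without triple heterozygote replicate 3 the count was 4 positive and 2 negative, since Ctsk turned, and the median was 0.43. None of the 6 passed the edgeR test, 2 had an unadjusted p under 0.05 (Spp1 and Mitf), and Trem2 alone, 1 of 6, had pools that did not overlap, against 16.9% of all genes tested. The share of all genes called was 0.0215%, 3 of 13964, and 8.66% (1209 genes) had an unadjusted p under 0.05. DESeq2 gave an adjusted p for Mitf alone among the 6, at 0.413. Without a filter on low counts 1 of the 6, Spp1, was called, in a setting that called 54 genes, against 3 with the filter. With edgeR fitted to only the 6 libraries compared, 0 of the 6 genes were called.

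**Figure D3:**
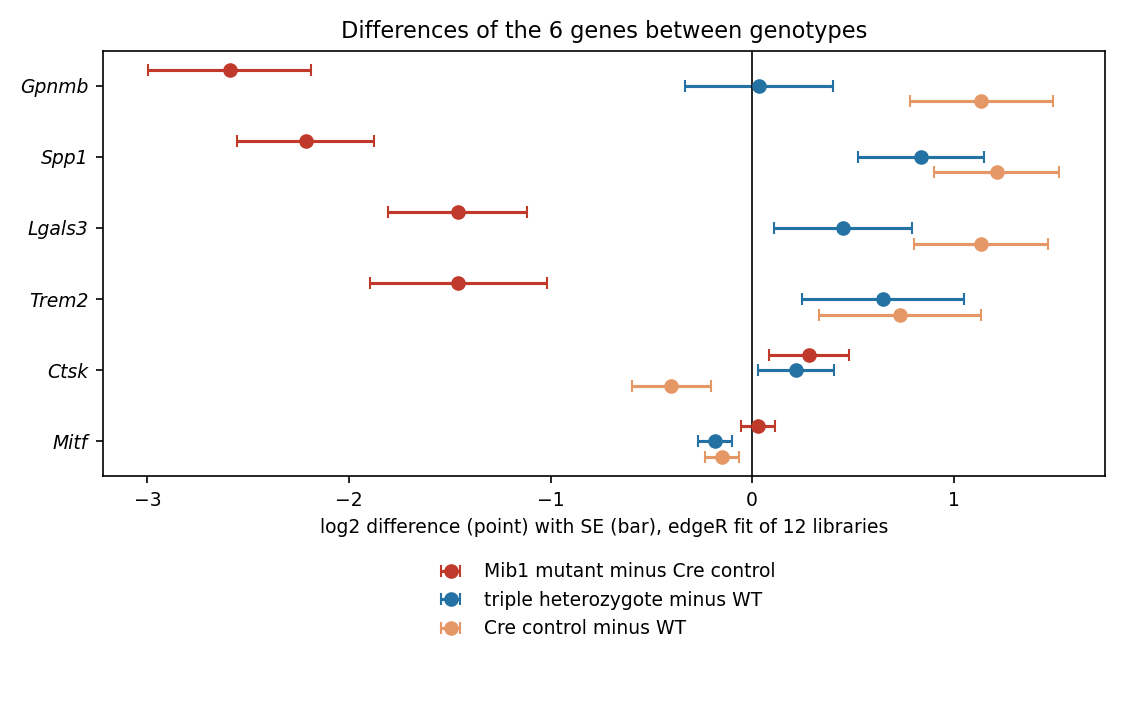
Log2 differences (points) with SE (bars) of the 6 genes in 3 comparisons, Mib1 mutant against Cre control, triple heterozygote against WT, and Cre control against WT, from an edgeR fit of 12 libraries. Gpnmb, Spp1, Lgals3 and Trem2 lie left of 0 in the first, at -2.59 to -1.46, and right of 0 in the third, at 0.73 to 1.21, while Mitf stays within 0.18 of 0 in all.

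Whole ventricles were sequenced, so fewer macrophages and less RNA per macrophage cannot be told apart. The members' levels were therefore also set against the mean log2 CPM of 11 macrophage reference genes in the same pool. These reference genes summed to 70.7 to 94.1 CPM in Mib1 mutant, 91.0 to 106 CPM in Cre control, 93.4 to 111 CPM in triple heterozygote and 84.6 to 95.2 CPM in WT pools. Relative to them, Gpnmb was at -0.64 ± 0.84 in Mib1 mutant pools and 1.63 ± 0.07 in Cre control pools on the log2 scale (SD, n = 3 each), a difference of -2.26. Spp1 was at 0.67 ± 0.44 in Mib1 mutant pools and 2.51 ± 0.05 in Cre control pools, a difference of -1.84. The pools of neither overlapped. The edgeR fit of all genes gave -2.59 for Gpnmb and -2.22 for Spp1, but it does not take differences of mean log2 CPM. The gap between these values and the relative differences is thus not the share of the reference genes alone.

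Lgals3 differed by -1.01 relative to the macrophage genes, with no overlap of Mib1 mutant and Cre control pools. Trem2 differed by -0.95 with overlap, and Ctsk and Mitf by 0.68 and 0.42 in the other direction. In the fit of all genes Ctsk differed by 0.28 and Mitf by 0.03. Their relative differences also carry the reference genes, whose median log2 difference was -0.45. For Cre control minus WT the relative differences were 1.12 for Gpnmb, 1.195 for Spp1 and 0.99 for Lgals3, without overlap, and 0.50 for Trem2, with overlap. Ctsk and Mitf differed by -0.54 and -0.28 there, without overlap. For triple heterozygote minus WT the relative differences were -0.16 for Gpnmb, 0.77 for Spp1, 0.24 for Lgals3 and 0.48 for Trem2, all with overlap. Ctsk differed by 0.03 with overlap, and Mitf by -0.35 without overlap. Without triple heterozygote replicate 3 they were 0.31 for Gpnmb, 0.52 for Spp1, 0.59 for Lgals3, 0.48 for Trem2, -0.21 for Ctsk and -0.32 for Mitf. The pools of Lgals3, Ctsk and Mitf then did not overlap, with a triple heterozygote pool fewer. The relative Gpnmb and Spp1 levels of the 3 Cre control pools lay close together, with an SD of 0.07 and 0.05, against 0.44 to 0.84 in the other groups.

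**Figure D4:**
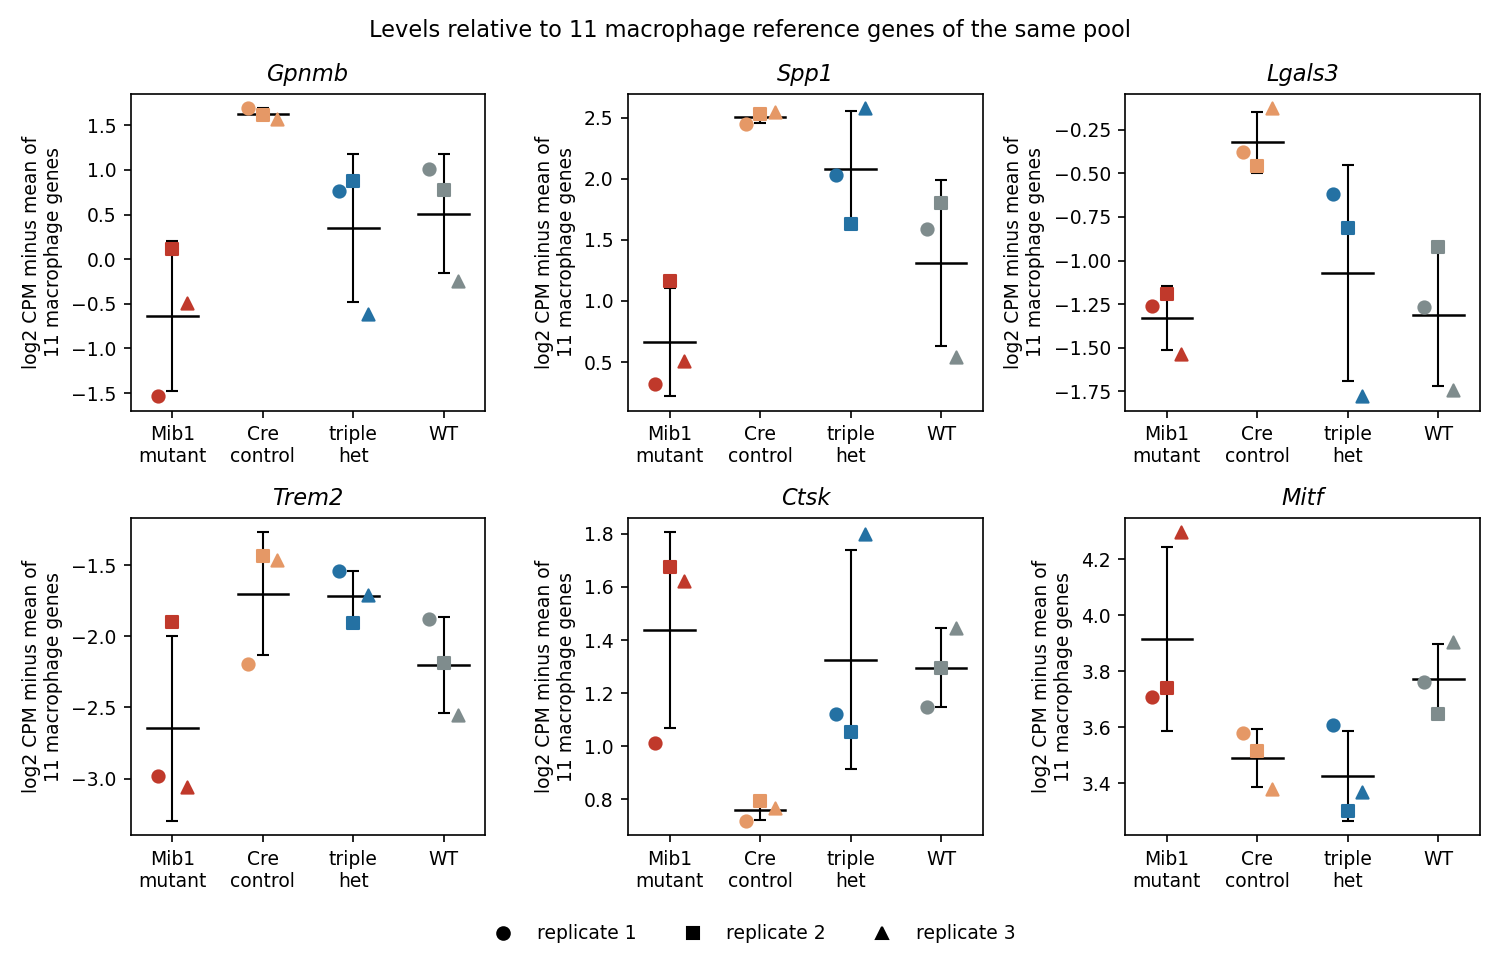
Log2 CPM of each gene minus the mean log2 CPM of 11 macrophage reference genes in the same pool (vertical axes), by genotype, with group mean (line) and SD (bar). Cre control pools lie above Mib1 mutant pools for Gpnmb, Spp1 and Lgals3, and below them for Ctsk and Mitf. The reference genes had a median log2 difference of -0.45 in Mib1 mutant minus Cre control, and that of Mitf was 0.03.

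Macrophage markers had a median log2 difference below 0 in Mib1 mutant minus Cre control. Of 26 markers 23 could be tested, 17 were lower and 6 higher, and the median log2 difference was -0.46, against 0.00 over all genes. Of these 3 fell, among them Lyz2 and C1qb, and none rose, with 10 at an unadjusted p under 0.05. Over all 13964 genes, 0.594% were called lower and 0.909% higher in this comparison, and 14% (1953 genes) had an unadjusted p under 0.05. Lyz2, lysozyme 2, had 13.3, 15.1 and 8.87 CPM in Mib1 mutant pools, against 20.6, 26.4 and 28.2 CPM in Cre control pools (log2 difference -1.02, SE 0.17, edgeR adjusted p = 0.00454). C1qb, a complement C1q chain, differed by -0.61 (SE 0.13, edgeR adjusted p = 0.0288); its call was lost without Mib1 mutant replicate 2 or 3 or Cre control replicate 2 or 3 (edgeR adjusted p 0.0569 to 0.129).

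Csf1r, the receptor that macrophages need to survive, differed by -0.27 (SE 0.13, edgeR adjusted p = 0.377), and its ligand Csf1 by 0.31 (edgeR adjusted p = 0.311). Stab1, a scavenger receptor shared with endothelium, differed by 0.23 (edgeR adjusted p = 0.454). In triple heterozygote minus WT the marker median was 0.18, and in Cre control minus WT it was 0.15. No marker passed in either with edgeR, DESeq2 or limma-voom, and 1 had an edgeR unadjusted p under 0.05 in each, against 8.66% and 8.43% of all genes.

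Lysosomal genes had a median difference near 0. Of 79 genes for lysosomal hydrolases and cofactors, membrane proteins and V-ATPase subunits, 78 could be tested, and the median difference of Mib1 mutant and Cre control was -0.01. Of these, 36 were higher and 42 lower, 10 had an unadjusted p under 0.05, and 1 fell, against 14% of all genes at an unadjusted p under 0.05 and 0.594% called lower. That gene was Ctss, cathepsin S, a protease of antigen-presenting cells. It had 7.59, 8.47 and 5.08 CPM in Mib1 mutant pools, against 9.94, 13.8 and 18.3 CPM in Cre control pools (log2 difference -1.01, SE 0.21, edgeR adjusted p = 0.0252). The call was lost with only those 6 libraries (edgeR adjusted p = 0.126) and without Mib1 mutant replicate 1 or 3 or Cre control replicate 2 or 3, where the edgeR adjusted p was 0.0599 to 0.129. Some of the most abundant lysosomal genes per length stood near 0: Psap, the saposin precursor, differed by 0.04, Ctsd, cathepsin D, by -0.07, and Lamp1, the membrane glycoprotein, by -0.02. Laptm4a, the highest per length at 216 CPM per kb, is not reported here. In triple heterozygote minus WT and in Cre control minus WT the medians were 0.02 each. No lysosomal gene passed in these with edgeR, DESeq2 or limma-voom. In the same order, 4 and 6 had an edgeR unadjusted p under 0.05, against 8.66% and 8.43% of all genes.

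Other genes known from lipid-handling macrophages were split. Of 25 further genes 22 could be tested, 12 were higher and 10 lower in Mib1 mutant than in Cre control ventricles, with a median of 0.05 and 10 at an unadjusted p under 0.05, against 14% of all genes. Cd36, the fatty acid translocase that heart muscle and endothelium also express, fell: it had 331, 263 and 254 CPM in Mib1 mutant pools, against 411, 389 and 373 CPM in Cre control pools (log2 difference -0.47, SE 0.10, edgeR adjusted p = 0.0288). That call was lost with only those 6 libraries (edgeR adjusted p = 0.0942) and without any 1 of Mib1 mutant replicates 2 and 3 and Cre control replicates 1 to 3 (edgeR adjusted p 0.0569 to 0.117). Itgax, the integrin CD11c, named after its values were seen, had 0, 0.559 and 0.517 CPM in Mib1 mutant pools, against 1.74, 1.68 and 2.36 CPM in Cre control pools (log2 difference -2.39, SE 0.60, edgeR adjusted p = 0.0656), and DESeq2 called it while limma-voom did not. DESeq2 also called Anxa5, annexin A5, higher in the mutant by 0.24 (edgeR adjusted p = 0.0630). Over all genes in this comparison DESeq2 called 400, against 210 with edgeR. Abundant genes of this list such as Lgals1, galectin-1, which many cell types express, differed by 0.33 (edgeR adjusted p = 0.236). The list median was 0.00 for triple heterozygote minus WT and -0.03 for Cre control minus WT, with no gene passing in edgeR. In that order 3 and 2 had an edgeR unadjusted p under 0.05, against 8.66% and 8.43% of all genes. DESeq2 called Cd36, lower in triple heterozygotes, where it called 34 genes in all, against 3 with edgeR.

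**Figure D5:**
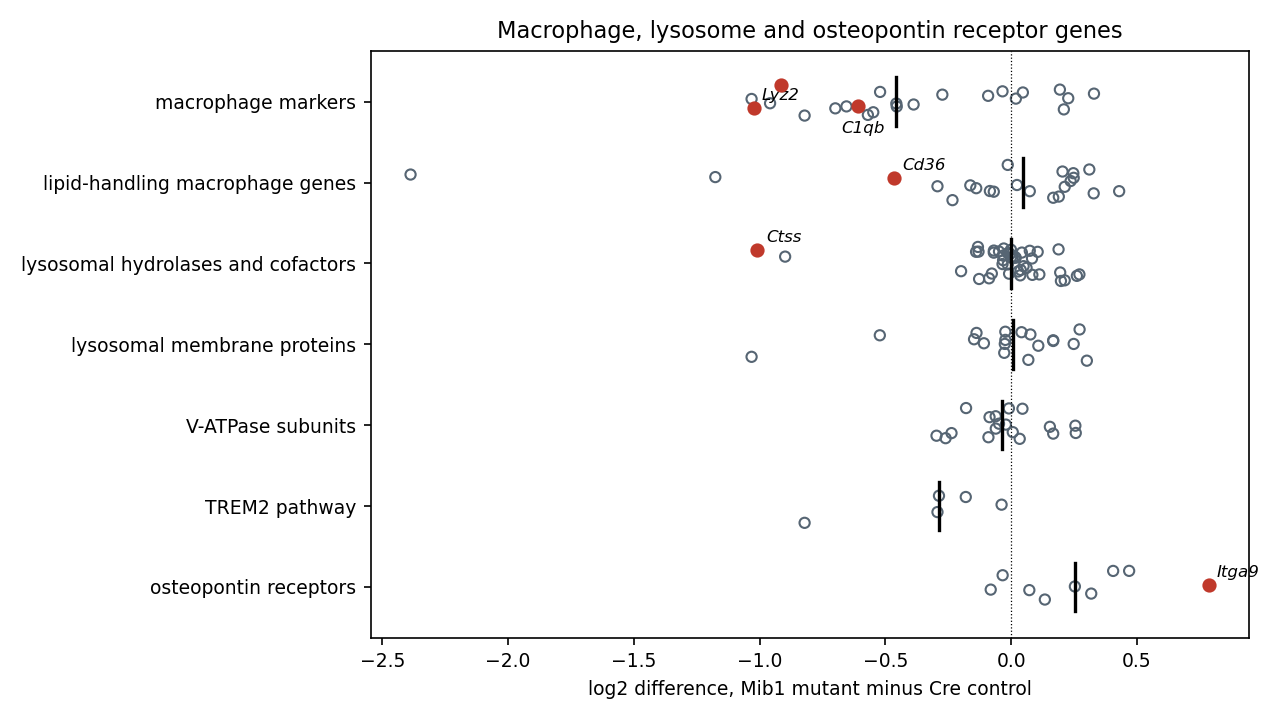
Log2 differences of Mib1 mutant minus Cre control (horizontal axis) for the tested genes of 7 lists, the 6 chosen genes left out, with called genes filled red, most of them named, and a black line at each list's median. Lysosomal lists centre on 0.00, 0.01 and -0.03, macrophage markers on -0.46, and only Itga9 among the named genes lies right of 0.

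Receptors for osteopontin were also examined, of which 9 of 10 could be tested. In Mib1 mutant minus Cre control 7 were positive and 2 negative, with a median of 0.25 and 5 at an unadjusted p under 0.05, against 14% of all genes, and 1 rose, against 0.909%. Itga9, the integrin alpha 9 chain that binds a cryptic site of cleaved osteopontin, had 168, 132 and 159 CPM in Mib1 mutant pools, against 86.1, 83.4 and 96.5 CPM in Cre control pools. The groups did not overlap, with a log2 difference of 0.79 (SE 0.10, edgeR adjusted p = 0.00043). Itgav and Itgb5, the chains of the alpha v beta 5 receptor, differed by 0.47 (edgeR adjusted p = 0.0506) and 0.32 (edgeR adjusted p = 0.0510). DESeq2 called both, and limma-voom called Itgav. Over all genes in this comparison DESeq2 called 400, limma-voom 208 and edgeR 210. Cd44, the hyaluronan receptor, differed by 0.25 (edgeR adjusted p = 0.140). None of these receptors passed in the other comparisons with edgeR, DESeq2 or limma-voom. There 1 (triple heterozygote minus WT) and 2 (Cre control minus WT) had an edgeR unadjusted p under 0.05, against 8.66% and 8.43% of all genes.

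Markers of other cells that could carry these genes were also examined. Over all genes in Mib1 mutant minus Cre control, 14% had an edgeR unadjusted p under 0.05, 48.8% had a negative difference and 0.594% were called lower. Of 12 melanocyte markers, which could bear on Gpnmb and Mitf, 6 stayed under 1 CPM in all 12 pools, Oca2 was at 0 in all, and Tyrp1 reached 0.0931 CPM. The summed melanocyte list, carried by Ednrb and Kit, was 122 to 150 CPM in Mib1 mutant and 131 to 163 CPM in Cre control pools, and the median over 6 tested genes was -0.39, with 4 lower. None of them passed with edgeR, DESeq2 or limma-voom, and 2 had an edgeR unadjusted p under 0.05. The 7 Schwann cell and neural crest markers summed to 22.8 to 25.1 CPM in Mib1 mutant and 23.2 to 28.9 CPM in Cre control pools. Of these 3 could be tested, with a median of -0.43, and 1 fell. That was Fabp7, a fatty acid binding protein of glia and their precursors, with 3.51, 3.26 and 2.33 CPM in Mib1 mutant pools, against 5.02, 5.75 and 5.27 CPM in Cre control pools (log2 difference -0.82, SE 0.18, edgeR adjusted p = 0.0359). DESeq2 and limma-voom called it too, and the call was lost with only those 6 libraries (edgeR adjusted p = 0.162) and without Mib1 mutant replicate 3 or any 1 Cre control pool (edgeR adjusted p 0.0739 to 0.157). The 8 cardiomyocyte markers, which could bear on Mitf, summed to 36575 to 44482 CPM in Mib1 mutant and 44046 to 49499 CPM in Cre control pools. Of these 7 were lower, with a median of -0.24 and none passing with edgeR, DESeq2 or limma-voom, and 5 had an edgeR unadjusted p under 0.05. The summed osteoclast markers were 38.3 to 43.5 CPM in Mib1 mutant and 33.5 to 40.7 CPM in Cre control pools, mostly Nfatc1, which endocardium also expresses. The 10 bone and cartilage markers summed to 9.40 to 21.5 CPM in Mib1 mutant and 5.79 to 9.46 CPM in Cre control pools. Of these 3 could be tested, with a median difference of 1.21 and none passing with edgeR, DESeq2 or limma-voom (2 at an edgeR unadjusted p under 0.05). All 6 lymphocyte markers stayed under 1 CPM.

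Neutrophil and mast cell markers, also myeloid, were lower in Mib1 mutant pools at very low levels. The 10 neutrophil markers summed to 1.46 to 2.56 CPM in Mib1 mutant and 3.19 to 10.4 CPM in Cre control pools, with Ly6g at 0 in all 12 pools. All 4 that could be tested were lower, with a median of -1.65 and none passing with edgeR. Of these, 2 had an edgeR unadjusted p under 0.05, against 14% of all genes. DESeq2, which called 400 genes in all against 210 with edgeR, called S100a8, a calcium-binding protein of neutrophils. The 5 mast cell markers summed to 1.33 to 5.40 CPM in Mib1 mutant and 6.42 to 6.56 CPM in Cre control pools, with a median of -1.17 over 3 tested genes and none passing with edgeR, DESeq2 or limma-voom (2 at an edgeR unadjusted p under 0.05). The liver markers, 5 in all, summed to 1.46 to 1.80 CPM in Mib1 mutant and 2.32 to 6.76 CPM in Cre control pools. They summed to 2.26 to 3.66 CPM in triple heterozygote pools and to 7.10, 24.6 and 3.94 CPM in WT pools, highest in replicate 2. Of these 3 could be tested, all lower in Mib1 mutant minus Cre control, with a median of -3.05. The same 3 were lower in triple heterozygote minus WT, with a median of -4.83. None passed in either with edgeR, DESeq2 or limma-voom. In each, 2 had an edgeR unadjusted p under 0.05, against 14% and 8.66% of all genes. The part of these other cell types in the levels of the 6 genes was not tested.

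Across the 12 pools the log2 CPM of Gpnmb followed those of Lgals3 (Pearson r = 0.84), Spp1 (r = 0.79) and Trem2 (r = 0.75), and Spp1 followed Trem2 (r = 0.90). Ctsk and Mitf had r between -0.40 and 0.20 with each of the other genes and with each other. These values describe 12 libraries that share the group differences, with n = 12 pools. Among 11638 genes with a mean of at least 2 CPM, predicted genes and pseudogenes left out, the 8 most like Gpnmb were Cndp2 (r = 0.93), Rbp7 (r = 0.92), Mmp12, Sdr39u1, March5, Coq5, Lgals3 and Ufsp1 (r = 0.88 to 0.84). Among the 8 most like Spp1 were Ctss (r = 0.88), Cndp2, Lrr1, Rgs10, Mtpap, Commd10 and Mpeg1 (r = 0.88 to 0.84). Cndp2, Mtpap and Commd10 lie on the same chromosome as Mib1.

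Some of these like genes are known from macrophages, among them Mmp12, macrophage elastase, and Mpeg1, the pore-forming perforin-2. All were ranked on the same pools, so low Mib1 mutant values follow in part from the ranking and are no separate result. Mmp12 had 0.759, 1.58 and 0.430 CPM in Mib1 mutant pools, against 1.93, 3.98 and 4.26 CPM in Cre control pools, a log2 difference of -1.89 (SE 0.46). Mpeg1 differed by -0.94 (SE 0.18), and Rbp7, a retinol-binding protein of adipose and vascular tissue, by -1.30 (SE 0.21). Cndp2, a cytosolic dipeptidase, differed by only -0.17 (SE 0.07).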

How the data were processed

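Ventricle RNA of 12 pools was sequenced as 60 base single reads from a directional kit. The authors deposited a table of expected counts per Ensembl gene, which need not be whole (9.64% of the values were not). Per the submitters' processing notes, bcl2fastq 2.20.0.422, cutadapt, RSEM and limma were used with GRCm38; no source used here gives the annotation or the counting strand. The expected counts were rounded, and 36345 of 38293 identifiers were named with GENCODE M21. The columns named MUT were taken as the triple heterozygotes because they name neither flox nor Cre, and 0 columns were left unused.

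Genes were filtered with filterByExpr, scaled by TMM and fitted together over 4 groups of 3 pools (8 residual degrees of freedom) with the quasi-likelihood test of edgeR 4.0.16 in R 4.3.3, two-sided, with Benjamini-Hochberg adjustment over 13964 genes and a threshold of 0.05. The scripts were tested on simulated data. DESeq2 1.42.0, limma-voom (limma 3.58.1), other filters and scalings, and leaving out single pools were alternatives. Log2 CPM used a prior count of 2, and levels per kb used the union of exons. P-values measure the spread between pools, which the labels do not tie to litters. With 1 read worth at most 0.0990 CPM, levels under 1 CPM rest on few reads.

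The 6 genes and all lists were chosen with earlier results of these data known. Of each list, genes called in any comparison, or the 3 with the highest level per length, were named, and all genes of the short lists (TREM2 partners, MiT/TFE, SIBLING, osteopontin receptors, CSF1); others are said to be chosen after their values were seen. Some genes that this rule names are not reported here.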

Additional observations from a re-analysis of the deposited data

How the results depend on the processing

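Counts of genes called moved most. Mib1 mutant minus Cre control gave 210 genes, and 476 with no filter on low counts, 400 in DESeq2, 93 with only the 6 libraries compared, 110 without the pools of replicate 1 in both groups (whose Xist was near 0), and 116 to 415 leaving out single pools. Triple heterozygote minus WT gave 3, and 54 with no filter, 34 with DESeq2, 10 with only its 6 libraries and 1 to 3 leaving out single pools. Cre control minus WT gave 39, and 144, 79, 68 and 23 to 42 under the same alternatives in the same order. The lysosomal count of 1 became 2 with no filter, 2 without the replicate 1 pools, 0 with only 6 libraries and 0 to 1 leaving out single pools. The macrophage marker count of 3 became 2 to 4 leaving out single pools. Of the 6 genes, 0 were called in triple heterozygote minus WT, and 1 with no filter, Spp1 at 0.85 (edgeR adjusted p = 0.0316); with no filter and triple heterozygote replicate 3 left out, chosen after seeing the data, Spp1 was at 0.55 (edgeR adjusted p = 0.00652). Signs turned in triple heterozygote minus WT for Gpnmb (-0.087 without triple heterozygote replicate 1, -0.23 without replicate 2, -0.30 without WT replicate 3) and Ctsk (-0.074 without triple heterozygote replicate 3, -0.060 with no filter as well). Leaving out single pools, Gpnmb ranged between -0.30 and 0.34 and Ctsk between -0.074 and 0.38 there. Gpnmb in Mib1 mutant minus Cre control was -3.11 without Mib1 mutant replicate 2, and Mitf relative to C1qa, C1qb and C1qc alone was -0.51 in triple heterozygote minus WT. The causes were not tested. C1qb lost its call with only 6 libraries (edgeR adjusted p = 0.145) and without Mib1 mutant replicate 2 or 3 or Cre control replicate 2 or 3 (0.0569 to 0.129), while Lyz2 and Itga9 kept theirs in all of these alternatives. A minimum mean of 2 CPM removed Trem2.

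Whether replicate numbers pair the samples was not settled. Correlations of same-numbered pools were 0.125, 0.166 and 0.014 for Mib1 mutant and Cre control, against -0.21 to 0.113 for differently numbered pools. For triple heterozygotes and WT they were 0.091, -0.006 and -0.061, against -0.152 to 0.161. With a replicate block, 318 genes were called in Mib1 mutant minus Cre control and 59 in Cre control minus WT, against 210 and 39 without it. Depth limits Trem2 most, at 4 to 14 reads in Mib1 mutant pools.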
